A study of Brassica napus with 22 samples.

Results

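Vacuolar processing enzymes, papain-type cysteine proteases, a bifunctional nuclease and a metacaspase dismantle plant cells during programmed cell death. Their gene copies were followed through the globular-stage seed of oilseed rape, Brassica napus cultivar Topas. Members were all genes whose best Arabidopsis protein match, as the authors deposited it, was 1 of 10 loci: αVPE (AT2G25940), βVPE (AT1G62710), γVPE (AT4G32940), δVPE (AT3G20210), CEP1 (AT5G50260), CEP2 (AT3G48340), CEP3 (AT3G48350), SAG12 (AT5G45890), BFN1 (AT1G11190) and MC9 (AT5G04200). This gave 38 copies among 101040 genes, 16 named for the A subgenome, 21 for the C subgenome and 1 for neither. Symbols are those of the Arabidopsis match, so several copies share one.

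The sample labels list 22 libraries of unmodified Topas plants grown under long days, all from seeds at 1 stage. The 4 filial compartments, formed by fertilisation, were the embryo proper with 2 libraries, the micropylar endosperm with 4, the chalazal endosperm with 3 and the peripheral endosperm with 2. The 3 maternal compartments were the chalazal proliferating tissue (CPT) with 3 libraries, the inner seed coat (inner coat) with 3 and the outer seed coat (outer coat) with 2. Intact whole seeds, with 3 libraries, hold all of these tissues, although the labels class them as maternal. Seed age in days and the number of plants or seeds in a library are not stated in the labels. The deposited table gives 1 combined value per group, in whole-number FPKM, a fragment count normalised for transcript length and for library size. No spread between libraries, test or interval could therefore be computed, and read depth is unknown. No order of neighbouring levels can be placed beyond a spread. A level per dissected region cannot tell fewer cells of a type from less RNA per cell.

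The VPEs are legumains, vacuolar proteases that cut after asparagine and that mature other vacuolar proteins; some carry the caspase-1-like activity of plants. CEP1, CEP2 and CEP3 are papain-type proteases with an endoplasmic reticulum retention tail, stored in vesicles that release them late in cell death. In Arabidopsis, δVPE is known for the death of an inner layer of the seed coat early in seed growth, and the nucellus, maternal tissue of the ovule, is cleared as the endosperm expands.

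Labels were checked against marker genes. Embryo markers (LEC1, ABI3, WOX9 and PLT5, 13 copies) summed to 442 FPKM in the embryo proper, 58 in the micropylar endosperm and at most 5 elsewhere. Endosperm markers (AGL62, FIS2, PHE1, CKX2 and MINI3, 43 copies) summed to 868, 2017 and 1742 FPKM in the micropylar, peripheral and chalazal endosperm and to at most 34 in any other compartment. GL2, of the outer coat epidermis, summed to 47 FPKM in the outer and 2 in the inner coat, whereas the full list of 5 outer coat loci summed to 122 and 201, and to 298 in the CPT. The inner coat column did not follow all of its markers: BAN, of the innermost pigmented layer, summed to 1 FPKM there, 56 in the CPT and 172 in the whole seed, while TT12 summed to 36, 6 and 36. TT10 and TT15 stayed at or below 16 FPKM in all columns, and the 4 loci together summed to 51 FPKM in the inner coat, 70 in the CPT and 216 in the whole seed. Phloem markers summed to 317 FPKM in the micropylar endosperm and to at most 18 in the other compartments. Ribosomal RNA and organelle genes together held 36.9% of the FPKM of the micropylar endosperm and between 4.16% and 16.0% in the other compartments. In the whole seed column they held 0.00762%, and its FPKM sum, 655846, was the lowest. Whole seed levels set beside those of dissected compartments carry this difference in make-up.

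Of the 38 copies, 17 reached 5 FPKM in at least 1 of the 8 columns, 9 peaked between 1 and 4 FPKM and 12 were listed at 0 throughout. The 17 came from 7 loci, and the 2 copies of αVPE, 2 of CEP2 and 5 of MC9 all stayed below 5 FPKM. Among the 17, 7 were highest in the inner coat, 7 in the CPT, 1 in the outer coat, 1 in the embryo proper and 1 in the micropylar endosperm. None was highest in the peripheral or chalazal endosperm, and 11 of the 17 were listed at 0 in the chalazal endosperm against 3 in the inner coat and 2 in the CPT.

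**Figure D1:**
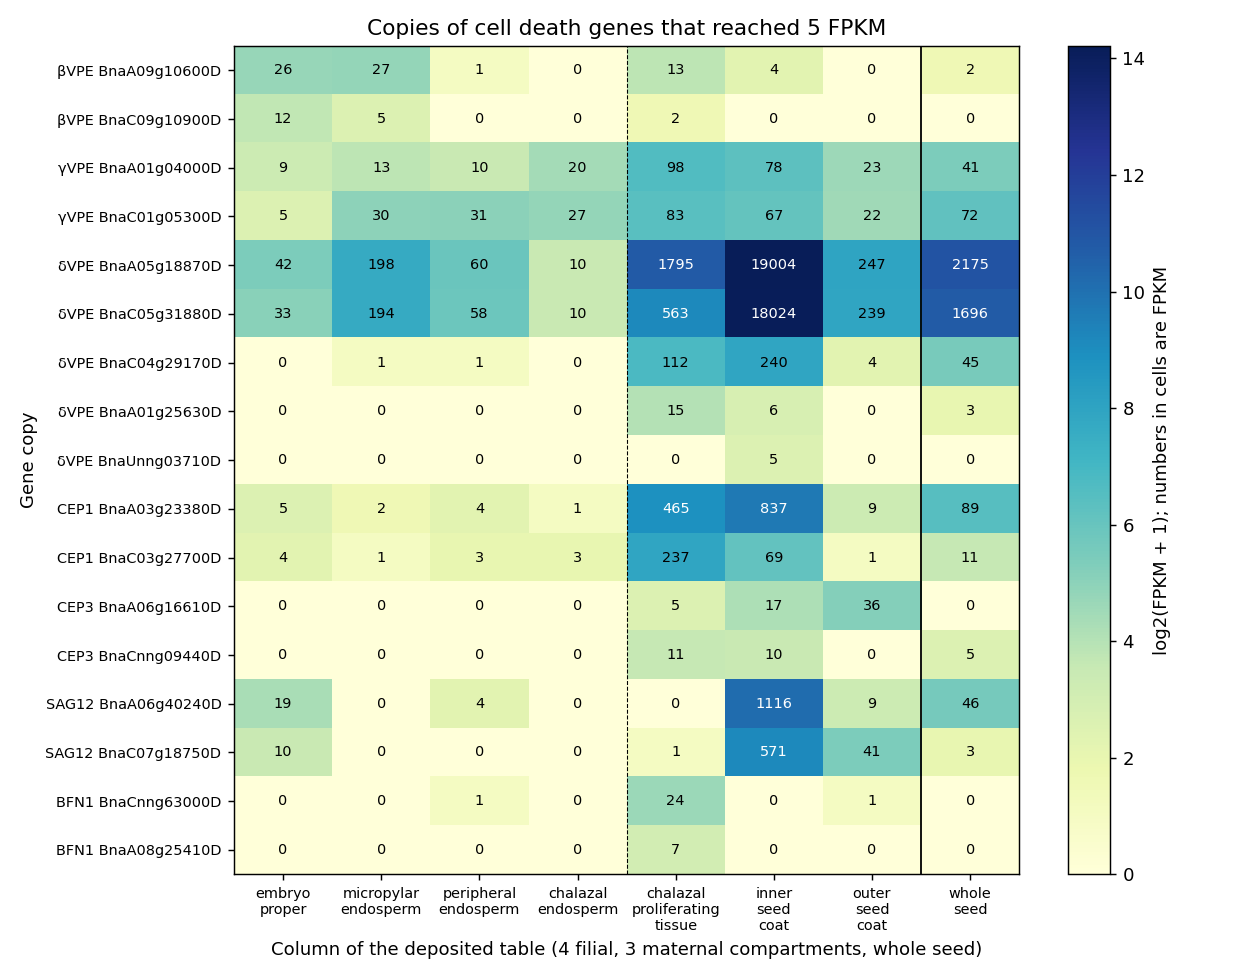
FPKM of the 17 copies that reached 5 FPKM (rows) in the 7 compartments and the whole seed (columns); colour is log2(FPKM + 1) and the number in each cell is the FPKM. A reader should see the pair of δVPE copies at 19004 and 18024 FPKM in the inner coat the SAG12 copies in the inner coat, BFN1 in the CPT and CEP1 in both of these compartments.

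δVPE was the most abundant member by a wide margin. The copy BnaA05g18870D (chromosome A05, 14274447 to 14276941) had 42 FPKM in the embryo proper, 198 in the micropylar, 60 in the peripheral and 10 within the chalazal endosperm, 1795 in the CPT, 19004 in the inner coat, 247 in the outer coat and 2175 in the whole seed. Its counterpart BnaC05g31880D (C05, 31227438 to 31229889) had 33, 194, 58, 10, 563, 18024, 239 and 1696 FPKM in the same order. Both were highest in the inner coat, next highest in the CPT and lowest in the chalazal endosperm. By abundance they ranked 3 and 4 among all genes of the inner coat column, 55 and 208 in the CPT and 5 and 10 in the whole seed. Summed over its 11 copies, δVPE made up 3.94% of all FPKM in the inner coat, 0.202% in the CPT, 0.598% in the whole seed and at most 0.0645% in any other column. The inner coat held 91.2% of its level summed over the 7 compartments.

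The other δVPE copies were lower and differed in where they peaked. BnaC04g29170D had 240 FPKM in the inner coat, 112 in the CPT, 45 in the whole seed and at most 4 elsewhere. BnaA01g25630D was higher in the CPT, at 15 FPKM, than in the inner coat, at 6, and 0 in each remaining compartment. The short model BnaUnng03710D, 186 bases long, had 5 FPKM in the inner coat alone. Another short model, BnaCnng63150D, had 1 FPKM there, and 5 further copies, between 351 and 456 bases long, were listed at 0. Of those 5, BnaCnng42270D, BnaCnng42290D, BnaCnng42300D and BnaCnng42320D lie within a single stretch of the unplaced C sequence, with gaps of 10796, 7215 and 2269 bases.

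The A and C copies of δVPE kept nearly the same ratio in most columns, and the CPT stood apart. BnaA05g18870D was 1.05-fold BnaC05g31880D in the inner coat, 1.03-fold in the outer coat and in the peripheral endosperm, 1.02-fold in the micropylar and 1.00-fold in the chalazal endosperm. It was 1.27-fold in the embryo proper, 1.28-fold in the whole seed and 3.19-fold in the CPT. How reads that fit both copies were assigned is not stated, so levels of single copies are uncertain. In the micropylar endosperm the pair stood at 1.04% and 1.08% of its inner coat level, in the outer coat at 1.30% and 1.33%, and in the peripheral endosperm at 0.316% and 0.322%. The SAG12 copy BnaA06g40240D, also highest in the inner coat, stood at 0% in the micropylar endosperm, 0.806% in the outer coat and 0.358% in the peripheral endosperm. The SAG12 copy BnaC07g18750D stood at 0%, 7.18% and 0% in the same order. The part of inner coat RNA in these low levels was not tested.

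γVPE, the vacuolar protease tied in plants to cell collapse during the hypersensitive response, was the most evenly spread member. BnaA01g04000D had 9 FPKM in the embryo proper, 13, 10 and 20 in the micropylar, peripheral and chalazal endosperm, 98 in the CPT, 78 in the inner coat, 23 in the outer coat and 41 in the whole seed. BnaC01g05300D had 5, 30, 31, 27, 83, 67, 22 and 72 FPKM. Neither copy was listed at 0 in any column, and both were highest in the CPT, with the inner coat 1.26-fold and 1.24-fold below it. That order of the summed copies turned round, with the inner coat highest, under quantile normalisation and when every column was brought to 1 total after rRNA and organelle genes were removed. The A copy was the higher one in the embryo proper and the maternal compartments, and the C copy in the 3 endosperm regions, where the A copy held between 24.4% and 42.6% of the pair.

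βVPE, which in Arabidopsis seeds processes storage proteins, was the only locus that reached 5 FPKM with its summed level highest in a filial compartment. BnaA09g10600D had 26 FPKM in the embryo proper, 27 in the micropylar endosperm, 13 in the CPT, 4 in the inner coat, 2 in the whole seed, 1 in the peripheral endosperm and 0 in the chalazal endosperm and outer coat. BnaC09g10900D had 12 FPKM in the embryo proper, 5 in the micropylar endosperm, 2 in the CPT and 0 elsewhere. The third copy, BnaCnng73810D, had 3 FPKM in the micropylar endosperm and 1 in the CPT. Embryo markers in the micropylar column were at 58 FPKM against 442 in the embryo proper, and their part in the βVPE level was not tested.

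Genes for the storage proteins that VPEs mature were mostly highest in the micropylar endosperm. Of 22 compared copies of 2S albumins and cruciferins, all 22 were at least 2-fold higher there than in the other 6 compartments, where 19.4% of all genes were. In the embryo proper 8 were higher, 5 lower and 9 neither, where 20.1% of all genes were higher and 17.2% lower. The SESA4 copy BnaC01g19320D was the exception in level, with 13 FPKM in the embryo proper and 12 in the micropylar endosperm. The SESA4 copy BnaA03g06940D had 298 FPKM in the micropylar endosperm against 10 in the embryo proper and 26 in the chalazal endosperm. The CRU3 copy BnaA01g08350D had 203, 0 and 24. αVPE, a vegetative legumain in Arabidopsis, reached at most 2 FPKM, in BnaC08g33220D in the CPT.

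**Figure D2:**
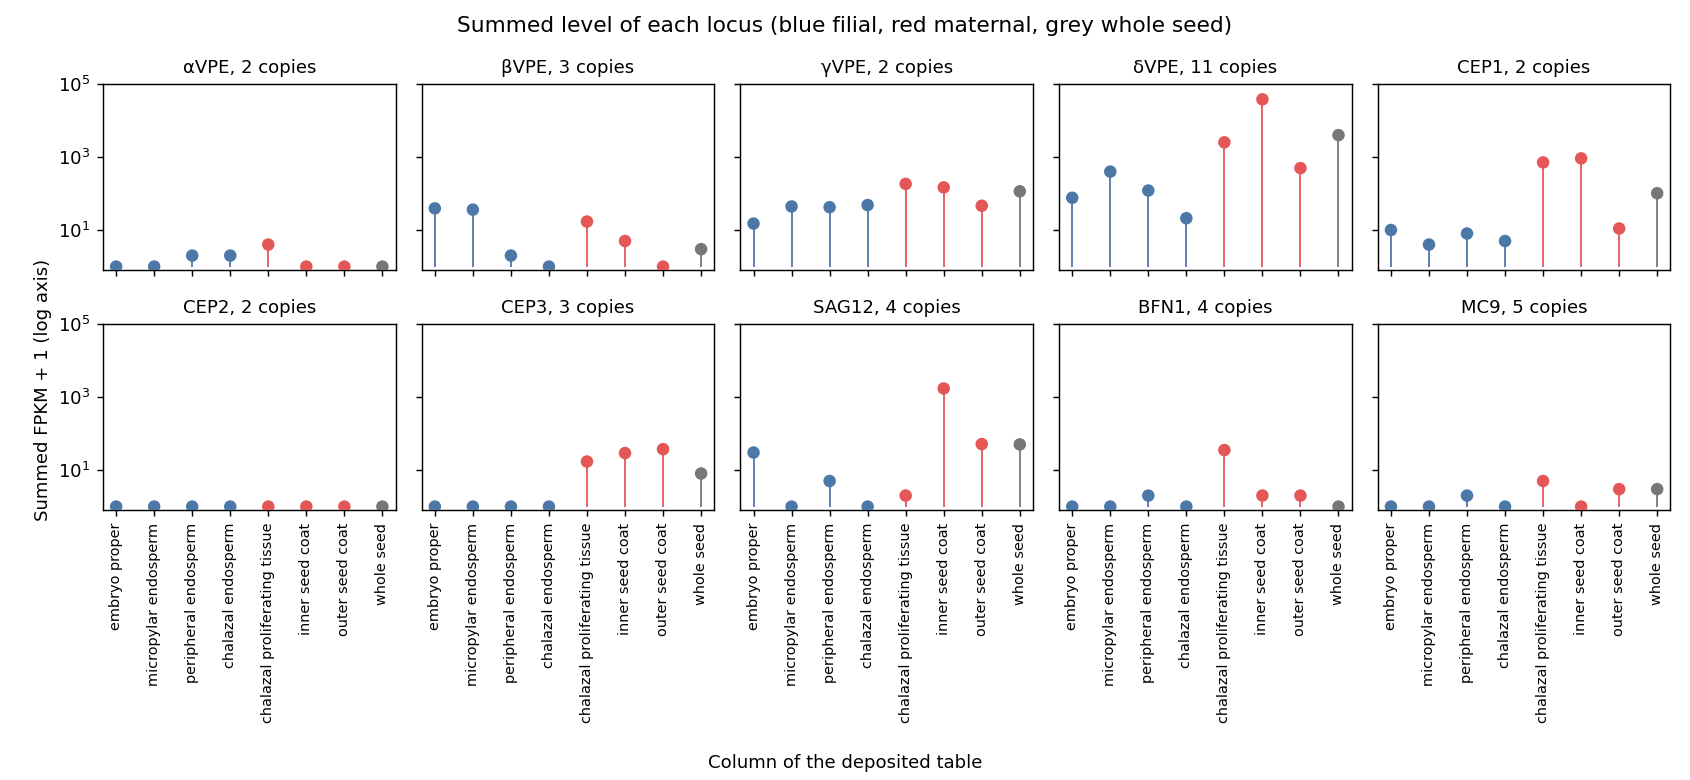
Summed FPKM + 1 of all copies of each of the 10 loci (vertical axis, logarithmic) in the 4 filial compartments (blue), 3 maternal compartments (red) and whole seed (grey). δVPE, CEP1 and SAG12 have their highest summed level in the inner coat, at 37280, 906 and 1687 FPKM, γVPE and BFN1 in the CPT, and βVPE in the embryo proper at 38 FPKM.

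Among the papain-type proteases, CEP1 was shared between the CPT and the inner coat. In Arabidopsis, CEP1 takes part in the death of the tapetum, the nurse layer of the anther. BnaA03g23380D (A03, 11185585 to 11187233) had 837 FPKM in the inner coat, 465 in the CPT, 89 in the whole seed, 9 in the outer coat, 5 in the embryo proper and 2, 4 and 1 in the micropylar, peripheral and chalazal endosperm. BnaC03g27700D (C03, 16154207 to 16156124) reversed the order of the maternal regions, with 237 FPKM in the CPT and 69 in the inner coat. It had 11 FPKM in the whole seed, 1 in the outer coat and between 1 and 4 in every filial compartment. The A copy held 92.4% of the pair in the inner coat, 89.0% in the whole seed and 66.2% in the CPT. Across all genes the A subgenome held 49.1%, 50.6% and 48.3% of the A and C FPKM in these columns.

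**Figure D3:**
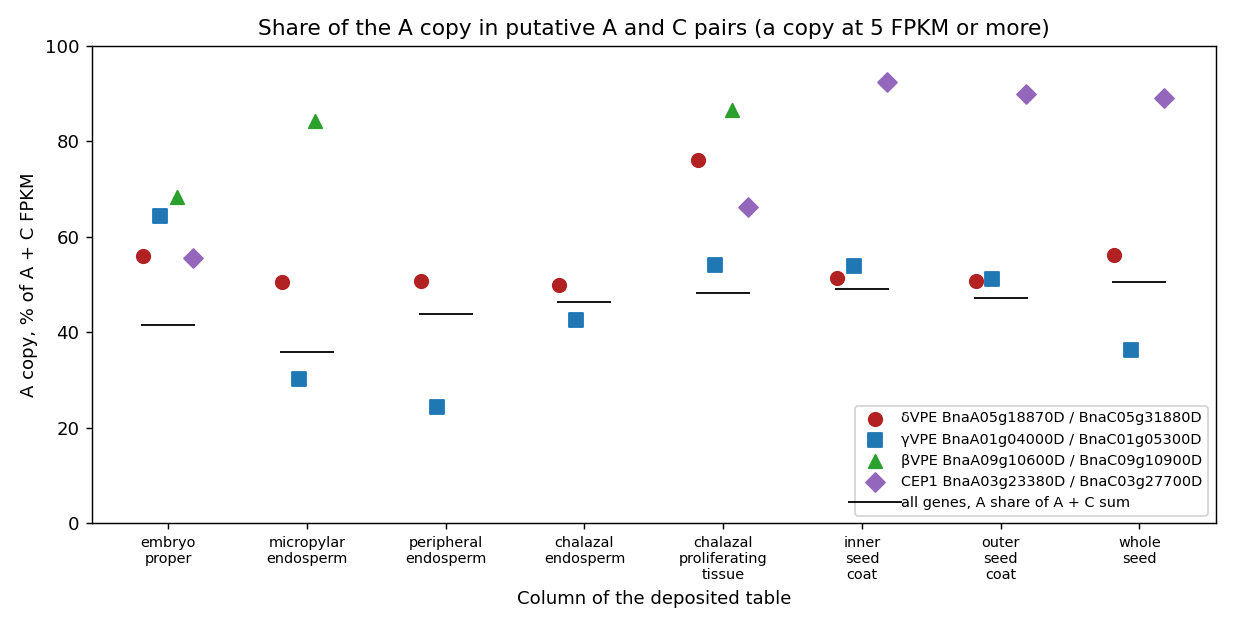
Share of the A copy in the summed FPKM of 4 putative A and C pairs (vertical axis, percent) in each column of the table, shown where a copy reached 5 FPKM; horizontal dashes give the same share over all genes. The δVPE pair lies between 50.0% and 56.2% except at 76.1% in the CPT, and the CEP1 pair is at 92.4% in the inner coat and 66.2% in the CPT.

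SAG12, the classic protease marker of leaf senescence, was nearly absent from the CPT. BnaA06g40240D (unplaced sequence of chromosome A06, 1943969 to 1945907) had 1116 FPKM in the inner coat, 46 in the whole seed, 19 in the embryo proper, 9 in the outer coat, 4 in the peripheral endosperm and 0 in the micropylar and chalazal endosperm and the CPT. BnaC07g18750D (C07, 25413621 to 25415548) had 571 FPKM in the inner coat, 41 in the outer coat, 10 in the embryo proper, 3 in the whole seed, 1 in the CPT and 0 in the 3 endosperm regions. The inner coat held 97.2% and 91.7% of their levels summed over the 7 compartments. Their whole seed levels were 4.12% and 0.525% of those in the inner coat, against 11.4% and 9.41% for the δVPE pair. The other 2 copies, BnaA02g24130D and BnaC02g31910D, were listed at 0 in all 8 columns.

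CEP3 was low and spread over the maternal compartments. BnaA06g16610D had 36 FPKM in the outer coat, 17 in the inner coat, 5 in the CPT and 0 in all filial compartments and the whole seed. It was the only copy at 5 FPKM or more that was highest in the outer coat. BnaCnng09440D had 11 FPKM in the CPT, 10 in the inner coat, 5 in the whole seed and 0 elsewhere. The third copy, BnaA06g16630D, 1605 bases from BnaA06g16610D on A06, had 1 FPKM in the inner coat and 2 in the whole seed. Both CEP2 copies, which are neighbours of CEP3 copies on A06 and on the unplaced C sequence, were listed at 0 in all columns.

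BFN1, a nuclease that degrades RNA and single-stranded DNA in senescing and dying cells, appeared almost solely in the CPT. BnaCnng63000D had 24 FPKM there and 1 in each of the peripheral endosperm and outer coat. BnaA08g25410D had 7 FPKM there and 0 in the other 7 columns, and BnaA09g47700D and BnaC08g42160D had 2 and 1. The inner coat, where δVPE peaked, had 1 FPKM of BFN1 in all, and the whole seed 0. MC9, a metacaspase that acts in the clearing of dead xylem vessels in Arabidopsis, reached at most 2 FPKM in BnaA10g26000D and BnaAnng17710D, and its other 3 copies were listed at 0. Of those, BnaCnng10260D and BnaCnng10270D, 294 and 603 bases long, lie 73 bases apart. Xylem markers (CESA4, CESA7, CESA8 and XCP1, 15 copies) summed to 1 FPKM in the CPT and 12 in the micropylar endosperm, with at most 2 elsewhere.

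The filial and maternal sides were compared to ask which copies follow the products of fertilisation and which the mother plant. For each side, log2(FPKM + 1) was averaged over its columns. A copy was counted as higher or lower when these averages differed 2-fold or more (1 log2 unit) and the higher side averaged 5 FPKM or more, a rule of size without an error rate. Only the 21 copies at 1 FPKM or more in at least 2 columns were compared. On the filial side 0 were higher, 13 lower and 8 neither, where 10.1% of all 54278 compared genes were higher and 16.9% lower. The 13 comprised all 4 compared copies of δVPE, both of γVPE, both of CEP1, 2 of 3 of CEP3, both of SAG12 and 1 of 2 of BFN1. The largest differences were -5.43 log2 for the CEP1 copy BnaA03g23380D, -5.38 for the δVPE copy BnaA05g18870D and -5.19 for BnaC04g29170D. The median over the 21 compared copies was -2.09 log2, beside -0.17 over all compared genes. Without the filter it was -0.33 over all 38 copies, beside 0 over all genes. βVPE did not share this direction: its copies were at 0.60 log2 for BnaA09g10600D and 1.04 for BnaC09g10900D, the latter below the floor of 5 FPKM.

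Each compartment was then set against the other 6. The other 6 enter as a mean of logs, so a copy can count as higher in a compartment without peaking there. In the inner coat 12 copies were higher, 0 lower and 9 neither, where 15.4% of all genes were higher and 6.99% lower. The largest differences were 8.46 log2 for BnaA06g40240D and 7.52 for BnaC07g18750D, both SAG12, and 7.62 and 7.34 for the C05 and A05 copies of δVPE. In the CPT 12 were also higher, 2 lower and 7 neither, where 16.5% of all genes were higher and 11.2% lower. CEP1 led there with 5.49 log2 for BnaC03g27700D and 5.44 for BnaA03g23380D, followed by the δVPE copy BnaC04g29170D at 4.78 and the BFN1 copy BnaCnng63000D at 4.31. The 2 lower copies were those of SAG12, BnaA06g40240D at -3.35 log2 and BnaC07g18750D, which had 1 FPKM there. Except for the βVPE copy BnaA09g10600D and BnaCnng63000D, the copies higher in the CPT were also higher in the inner coat. Some peaked elsewhere. BnaA09g10600D had 13 FPKM in the CPT and 27 in the micropylar endosperm, and the CEP3 copy BnaA06g16610D had 5 in the CPT and 36 in the outer coat. The member median was 1.94 log2 in the inner coat and 1.66 in the CPT, beside 0.21 and -0.07 over all genes. Without the filter the medians over all 38 copies were 0 in the inner coat and 0.83 in the CPT, beside 0 in each over all genes.

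The outer coat, maternal as well, had 2 copies higher, 3 lower and 16 neither, where 14.8% of all genes were higher and 10.4% lower. The 2 higher were the CEP3 copy BnaA06g16610D and the SAG12 copy BnaC07g18750D, and the 3 lower were both CEP1 copies and the βVPE copy BnaA09g10600D. BnaC07g18750D had 41 FPKM in the outer coat but 571 in the inner coat. The split became 3 higher and 3 lower under quantile normalisation, 2 and 2 with column medians equalised and 3 and 2 with column totals equalised. Summed δVPE was 76.1-fold lower in the outer than in the inner coat, summed CEP1 90.6-fold, summed SAG12 33.7-fold and summed γVPE 3.22-fold.

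In the embryo proper 3 copies were higher, 8 lower and 10 neither, where 20.1% of all genes were higher and 17.2% lower. The 3 were the βVPE copies BnaC09g10900D at 3.01 log2 and BnaA09g10600D at 2.77, and the SAG12 copy BnaA06g40240D at 1.69 with 19 FPKM. That SAG12 copy had 1116 FPKM in the inner coat. The micropylar endosperm had 2 higher, 6 lower and 13 neither, where 19.4% of all genes were higher and 18.2% lower, and the 2 were again these βVPE copies, with BnaA09g10600D at 2.83 log2. That split became 1 higher and 9 lower with column medians equalised. The peripheral endosperm and the chalazal endosperm each had 0 higher, 9 lower and 12 neither. Of all genes, 13.7% were higher and 11.4% lower in the former, and 13.6% higher and 15.5% lower in the latter. The whole seed against the 7 compartments gave 7 copies higher, 1 lower and 13 neither, where 16.1% of all genes were higher and 9.6% lower. The 7 were 3 copies of δVPE and the copies BnaC01g05300D of γVPE, BnaA03g23380D of CEP1, BnaCnng09440D of CEP3 and BnaA06g40240D of SAG12, and the lower one was the CEP3 copy BnaA06g16610D. Against a mean of logs over 7 compartments, a copy confined to few of them can count as higher in the whole seed. BnaA06g40240D, counted as higher, had 46 FPKM in the whole seed and 1116 in the inner coat, and BnaA03g23380D had 89 and 837. Under quantile normalisation the whole seed had 7 higher and 3 lower. The whole seed column held almost no rRNA and organelle FPKM. With column totals equalised after removal of these genes, the member median in this comparison went from 0.75 to 1.19 log2. The median of all genes went from 0.06 to 0.60.

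**Figure D4:**
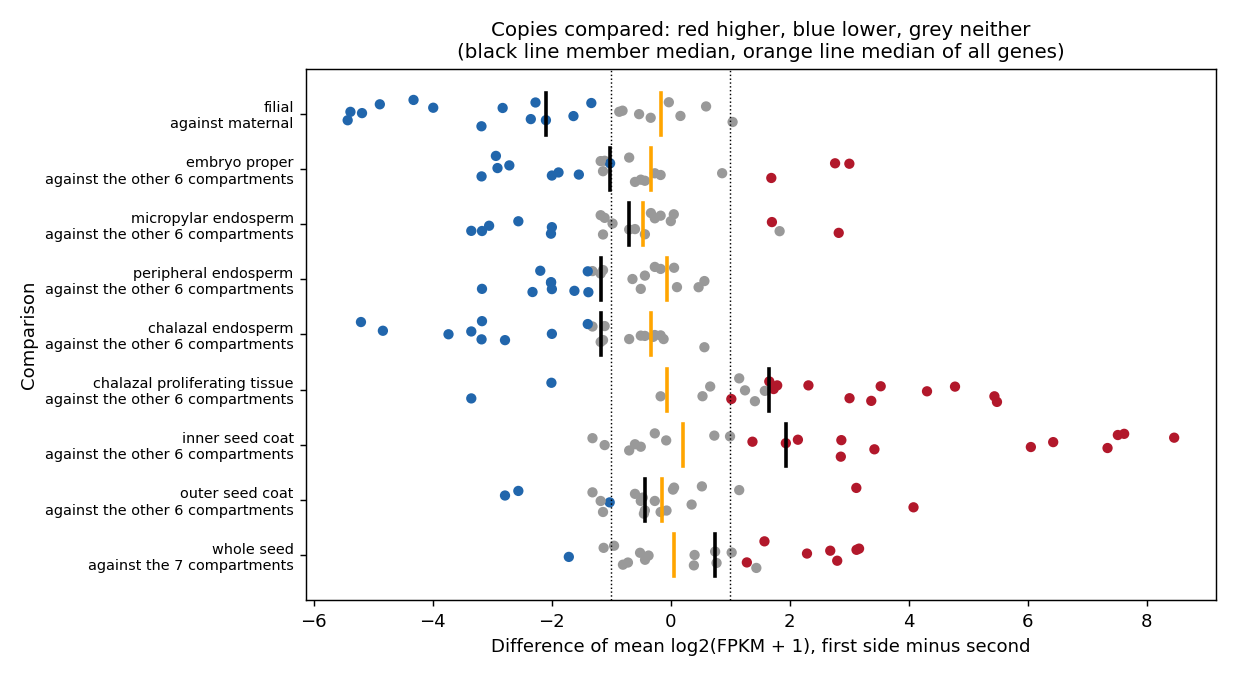
Difference of mean log2(FPKM + 1) between the sides of each of the 9 comparisons (horizontal axis) for the 21 compared copies (points, red higher, blue lower and grey neither by the rule of size), with the median of the copies (black line) and of all genes (orange line); dotted lines mark a difference of 1. The median of these 21 copies is -2.09 for filial against maternal, 1.66 for the CPT and 1.94 for the inner coat, where all 38 copies without the filter give -0.33, 0.83 and 0.

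The CPT lies next to the chalazal endosperm, and the members separated them. Summed CEP1 was at 702 FPKM in the tissue and 4 in the endosperm, summed δVPE at 2485 and 20, summed γVPE at 181 and 47, and summed BFN1 at 34 and 0. TT16, the MADS-box regulator that promotes nucellus breakdown in Arabidopsis, summed to 1768 FPKM in the CPT, 1112 in the inner coat, 16 in the outer coat and at most 15 in filial compartments. Its copy BnaA03g39500D had 579 FPKM in the tissue and 5 in the chalazal endosperm. STK, a MADS-box gene of ovule and seed coat identity, had another order, with 862 FPKM in the outer coat, 105 in the inner coat, 67 in the micropylar endosperm and 15 in the CPT. Its copy BnaAnng39120D had 750 FPKM in the outer coat and 12 in the CPT. Among 10 compared copies of TT16 and STK, 9 were lower on the filial side and 0 higher, where 16.9% and 10.1% of all genes were.

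Related genes, taken from 9 lists of Arabidopsis loci, were counted by the same rule and can be read against the shares for all genes given above. Other papain-type proteases, 38 copies, gave 4 higher and 12 lower on the filial side, 19 higher and 3 lower in the inner coat, and 10 and 9 in the CPT, where their median of 0.15 became -0.08 under quantile normalisation. In the micropylar endosperm 15 were higher and 3 lower, which became 6 and 8 with column medians equalised. Their leading genes were the cathepsin B copies of CTB3, a protease linked to cell death in Arabidopsis. BnaA09g52180D had 2268 FPKM in the CPT, 1019 in the inner coat, 158 in the outer coat, 104 in the micropylar endosperm and at most 14 in the other filial compartments. BnaCnng01440D had 1287, 724, 133 and 52 FPKM there, and at most 30.

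Inhibitors of such proteases were also abundant, and the compartment of the peak differed between inhibitor genes. Of 49 compared copies, 16 were higher and 16 lower on the filial side, 14 higher and 12 lower in the inner coat, and 9 and 16 in the CPT. In the micropylar endosperm 15 were higher and 10 lower, which became 11 and 14 with column medians equalised. The WSCP copy BnaA07g30010D, which matches a Kunitz-type inhibitor of papain-type proteases in Arabidopsis, had 19085 FPKM in the inner coat, 1 rank above the δVPE copy BnaA05g18870D, and 11922 in the outer coat. It had 307 FPKM in the CPT, 1832 in the micropylar endosperm and 7333 in the whole seed, where it ranked 1. Cystatins, small inhibitors of papain-type proteases, had different orders by locus. CYS4 summed to 9179 FPKM in the chalazal and 5618 in the peripheral endosperm, and CYS3 to 303 in the CPT and 330 in the inner coat. CYS6 was spread, between 49 and 195 FPKM in the compartments. The CYS1 copy BnaC09g44540D had 1259 FPKM in the CPT and at most 136 in the other compartments. The CYS5 copy BnaC04g11920D had 1861 and 870 FPKM in the peripheral and chalazal endosperm, 24 in the inner coat and 0 in the other compartments.

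Other nucleases, 15 copies, gave 4 higher and 5 lower on the filial side, and their median of -0.46 became 0.37 with a filter of 5 FPKM. In the inner coat 6 were higher and 3 lower, with a median of 0.24 that became -0.35 under that filter and -0.11 under quantile normalisation, and in the CPT 3 and 4. ENDO2, of the same nuclease family as BFN1, lay where BFN1 did not: BnaA07g26950D had 442 FPKM in the chalazal endosperm, 199 in the peripheral endosperm and 0 in the CPT. Other developmental cell death markers (PASPA3, RNS3, SCPL48, EXI1 and DMP4), 8 copies, gave 0 higher and 2 lower on the filial side, with 2 higher and 0 lower in each of the inner coat and the CPT. Their CPT median of -0.01 became 0.21 with a pseudocount of 0.1. The RNS3 ribonuclease copy BnaA07g09330D had 25 FPKM in the inner coat, and the DMP4 copy BnaA08g08760D had 14 in the CPT. Other copies peaked elsewhere. The PASPA3 copy BnaC09g22820D had 15 FPKM in the chalazal endosperm, 1 in the inner coat and 0 in the CPT. The DMP4 copy BnaA01g09210D had 14 in the outer coat and 0 in the inner coat and the CPT.

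Regulators of cell death and senescence, 18 copies, gave 0 higher and 10 lower on the filial side, 7 higher and 1 lower in the inner coat, and 9 and 0 in the CPT. The copies of this list that reached 5 FPKM were 6 of LSD1, 4 of BI1, 4 of NAC087 and 1 of WRKY53. SMB, KIR1, ORE1, NAP, NAC046 and BRN2 each summed to at most 3 FPKM in any column. NAC087, a transcription factor of root cap cell death in Arabidopsis, had 96 FPKM in BnaC03g08880D and 43 in BnaA03g07000D in the CPT, against at most 5 and 1 in the other compartments. BI1 is a suppressor of cell death, and its copy BnaC02g33230D had 106 FPKM in the CPT and 37 in the inner coat. The counts of this list therefore do not separate suppressors of cell death from genes that promote it. Autophagy genes, 31 copies, gave 0 higher and 14 lower on the filial side, 20 higher and 0 lower in the CPT, and 10 and 0 in the inner coat. The ATG8E copy BnaC03g25150D had 77 FPKM in the CPT and 17 in the inner coat. Metacaspases other than MC9, 10 copies, gave 1 higher and 4 lower on the filial side, 3 higher and 1 lower in the CPT, and 2 and 1 in the inner coat, where the median of 0.03 became -0.20 without the micropylar column. The MC4 copy BnaA07g34830D reached 132 FPKM in the CPT, and the MC5 copy BnaC06g39730D had 80 in the peripheral endosperm. Storage protein genes, 22 copies, gave 18 higher and 0 lower on the filial side, and 17 lower and 0 higher in each of the CPT and the inner coat.

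**Figure D5:**
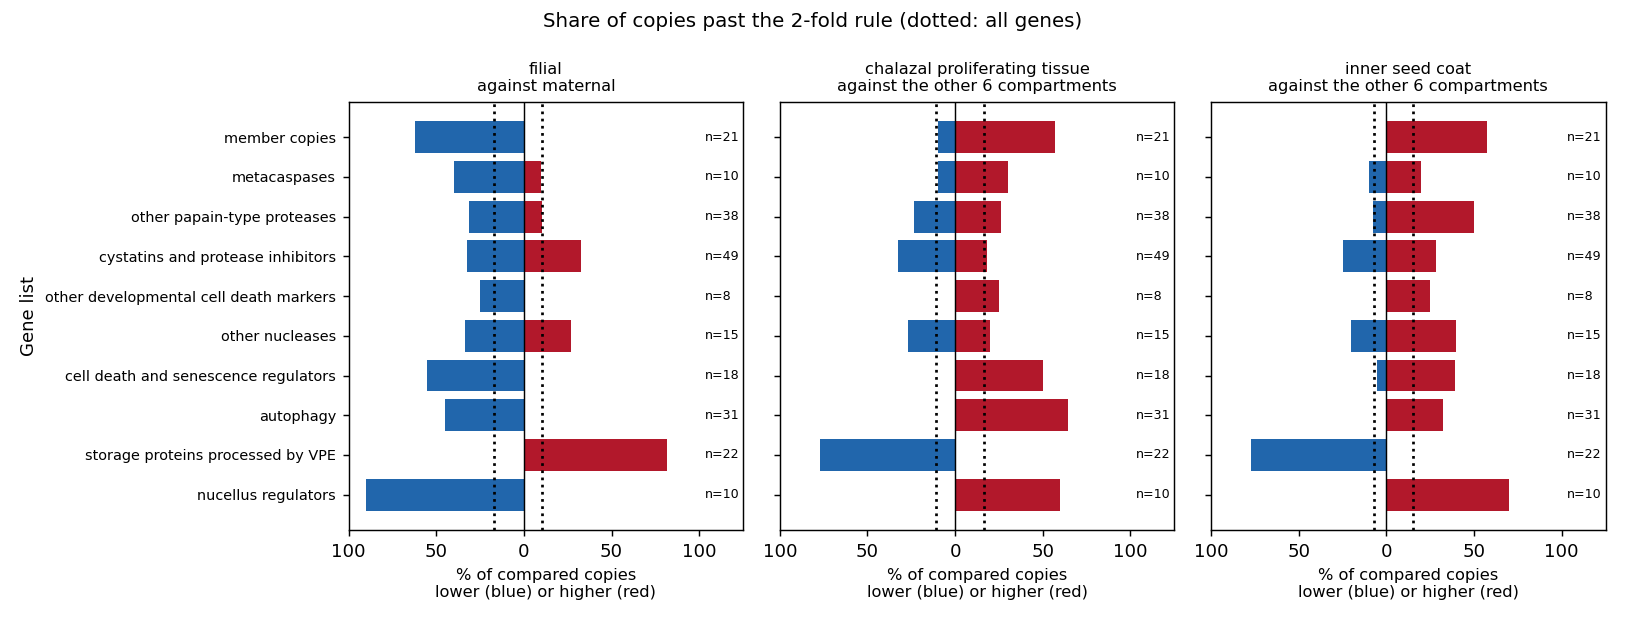
Percent of compared copies that were lower (blue, to the left) or higher (red, to the right) by the 2-fold rule of size, for the members and 9 lists of related genes (rows, with the number of copies), in 3 comparisons; dotted lines give the same shares over all genes. Member copies are at 61.9% lower on the filial side and at 57.1% higher in each of the CPT and the inner coat.

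Genes most like the 4 most abundant member copies were sought by Pearson's r of log2(FPKM + 1) over the 7 compartments, among 9381 other genes that reached 50 FPKM. With 7 points, 18 genes were at r of 0.95 or more for each copy of the δVPE pair, 2 for the SAG12 copy BnaA06g40240D and 38 for the CEP1 copy BnaA03g23380D. For BnaA05g18870D the nearest was BnaA08g04880D, a GILT-type lysosomal thiol reductase gene at 14931 FPKM in the inner coat and 1374 in the CPT, with r of 0.98. BnaA10g04730D, a tetratricopeptide repeat gene, and BnaC02g28390D, a copper amine oxidase gene, followed at 0.97 each. For BnaC05g31880D they were BnaA10g04730D at 0.99, the methionine adenosyltransferase gene BnaA05g07530D at 0.97 and the copper amine oxidase gene BnaA02g21420D at 0.97. The SAG12 copy was nearest to BnaA10g17450D, of unknown function, at 0.97, the leucine-rich repeat gene BnaA10g01930D at 0.96 and the SNARE-like gene BnaA07g35560D at 0.946, just under that bound. BnaA07g35560D varied little, between 25 and 52 FPKM in the compartments, where the SAG12 copy ran from 0 to 1116. The CEP1 copy was nearest to the aldehyde dehydrogenase gene BnaA08g00900D at 1.00, the cytochrome P450 gene BnaC08g17160D at 0.99, with 861 FPKM in the inner coat and 387 in the CPT, and the lectin gene BnaAnng35290D at 0.99. All values of r share the same 7 columns, and many genes are compared with few points.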

How the data were processed

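RNA-seq of 22 libraries was deposited as 1 table. The labels name Trimmomatic 0.36, HISAT2 and Cufflinks per the submitters' processing notes, with no role or setting; the genome build is not given in the sources used here. The deposited values are a score, FPKM that the authors rounded to whole numbers (100% of values are whole), 1 combined value per group. The way of combining libraries is not given in the sources used here. The whole seed column, whose heading lacks a unit, was read as FPKM. Gene lengths in bases, a column of other unit, are also deposited. A further 1 column of FPKM matched no sample and was not used. Of 101040 genes, 593 without compartment values were left out.

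Starts were moved by 1, since 17707 genes have a deposited length of end minus start, and 0 have that plus 1. Differences of mean log2(FPKM + 1) were computed over the 54278 genes at 1 FPKM or more in at least 2 of 8 columns. With 1 value per group, no test, interval or omission of replicates was possible. Members and lists were chosen with earlier results of these data known. All copies at 5 FPKM or more are named, as are the 3 genes most like each of the 4 most abundant copies, and some of the 2 copies of largest difference per list and comparison. Some low copies and other list members were chosen after their values were seen. Of 73 list loci, 69 are in the table. Alternatives were a pseudocount of 0.1, no filter, a filter of 5 FPKM, quantile normalisation, equalised column medians, equalised column totals after removal of 366 rRNA and organelle genes, comparisons without the micropylar endosperm, a 4-fold rule and no floor. The work used pandas 2.3.3 and numpy 2.4.6 under Python 3.11.15, with figures from matplotlib 3.10.9.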

Additional observations from a re-analysis of the deposited data

How the results depend on the processing

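No paired analysis was possible because the table holds 1 combined column per group, and omission of single libraries could not be run for the same reason. Of 164 recomputed counts, 149 stayed within 1.5 times the count reported, among them the 13 copies lower on the filial side (11 to 13) and the 12 higher in the inner coat (10 to 13). With quantile normalisation 3 copies were lower in the whole seed in place of 1. With column medians equalised, 1 was higher in the micropylar endosperm in place of 2, 1 was lower in the inner coat in place of 0 and 2 were lower in the whole seed. With column totals equalised, 1 was higher on the filial side in place of 0. Without the micropylar endosperm, 1 was lower in the inner coat and 2 in the whole seed. With the 4-fold rule, 4 were lower in the embryo proper in place of 8, 5 in the peripheral endosperm in place of 9 and 0 in the whole seed, and 1 was higher in the micropylar endosperm. With no floor, 1 was higher on the filial side, and 2 were lower in the inner coat, 6 in the outer coat in place of 3 and 2 in the whole seed. Other than through the construction of these alternatives, the cause was not tested. Of 182 recomputed filial against maternal values of single copies, 0 reversed a copy counted as lower, and 5 changed the sign of a copy counted as neither. The 3 scalings moved the median difference of all genes by between -0.46 log2 (chalazal endosperm, equalised totals) and 0.54 (outer coat, equalised totals). The lists' medians changed sign under an alternative in 12 cases, counted over filial against maternal, the micropylar endosperm, the CPT and the inner coat. The medians of these cases as reported lay within 0.5 log2 of 0, and under the alternatives they reached -0.62 (inhibitors) and -0.58 (other papain-type proteases) in the micropylar endosperm with column medians equalised. Whole-number values make levels below 5 FPKM coarse.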
